A study of Drosophila melanogaster with 2 samples.

Results

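Peaks at single, non-divergent promoters were the binding sites of the zinc-finger protein Oaz that lay next to the start of 1 gene with no oppositely transcribed neighbour close upstream. A peak was included when its summit lay within 500 bp of a protein-coding transcription start site and the gene of the nearest start had no start of another protein-coding gene, on the opposite strand, within 1000 bp upstream. Of 2772 peaks on the chromosome arms, 681 (24.6%) met this rule and were named by 629 genes. The rule used positions only and no measured signal. The other arm peaks fell into 542 at divergent promoters, where such a neighbour was present, and 1549 outside promoters. The data came from chromatin immunoprecipitation and sequencing (ChIP-seq) of whole Drosophila melanogaster embryos, 0 to 24 hours old. The embryos were from transgenic flies, strain Oaz-GFP, that express Oaz fused to the green fluorescent protein eGFP, and the precipitation used an antibody against GFP. There was 1 group of embryos of 2 biological replicates, and with a single condition all comparisons are between peaks, promoters or stretches of sequence. Whole embryos mix all cell types, and the labels do not say in which cells the fusion is made. The peak of replicate 1 or 2 that overlaps a listed peak by at least 1 bp is given as its replicate value.

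Oaz belongs to a family of proteins with many zinc fingers, and its vertebrate relatives act in signalling by bone morphogenetic proteins and bind the early B-cell factors. In the fly it is known for a role in the posterior spiracles, the openings of the larval breathing tubes. Fly promoters fall into broad kinds. Housekeeping promoters often carry the DNA replication-related element (DRE), which is bound by DREF, and are often arranged as divergent pairs. Regulated promoters more often carry a TATA box and an initiator, and many of those with paused RNA polymerase carry GAGA repeats, which are bound by the GAGA factor encoded by Trl.

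The word ACAGTG was among the leading words at these summits, and 6 of the strongest peaks that held it in sequence outside annotated UTRs are shown because its place and direction recurred between them. Each sequence runs 5′ to 3′ on the strand of the named gene and holds the summit base in the middle with 100 bases to either side. Capitals mark ACAGTG and its reverse complement CACTGT. The stretches are RefSeq sequence of Release 6 (dm6), at chr3R:31588440-31588640 (plus strand) for CG1635, chr2L:4997554-4997754 (minus strand) for Rtnl1, chr3L:3081328-3081528 (plus strand) for PAN3, chr2L:10474396-10474596 (minus strand) for RluA-1, chr2L:6601235-6601435 (minus strand) for Dpp10 and chr3R:27281117-27281317 (minus strand) for mrt. In CG1635, Rtnl1, PAN3 and Dpp10 the first word lies on the left in the form ACAGTG and the second on the right in the form CACTGT, so that both read toward the summit from opposite sides. In RluA-1 and mrt only the word on the right, in the form CACTGT, was present.
CG1635: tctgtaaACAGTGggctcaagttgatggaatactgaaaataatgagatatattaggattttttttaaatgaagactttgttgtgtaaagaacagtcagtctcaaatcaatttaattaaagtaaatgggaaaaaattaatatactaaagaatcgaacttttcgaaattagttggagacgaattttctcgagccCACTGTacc
Rtnl1: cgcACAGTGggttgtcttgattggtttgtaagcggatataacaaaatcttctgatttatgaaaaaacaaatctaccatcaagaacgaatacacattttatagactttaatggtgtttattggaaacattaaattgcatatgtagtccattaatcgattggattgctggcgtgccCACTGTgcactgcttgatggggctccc
PAN3: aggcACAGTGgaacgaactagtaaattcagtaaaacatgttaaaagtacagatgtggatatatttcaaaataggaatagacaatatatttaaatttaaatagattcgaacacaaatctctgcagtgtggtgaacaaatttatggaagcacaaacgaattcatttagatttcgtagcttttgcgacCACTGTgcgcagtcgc
RluA-1: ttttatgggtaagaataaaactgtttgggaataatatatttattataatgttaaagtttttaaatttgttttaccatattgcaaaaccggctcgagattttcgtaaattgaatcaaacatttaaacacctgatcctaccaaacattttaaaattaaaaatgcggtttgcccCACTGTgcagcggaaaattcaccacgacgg
Dpp10: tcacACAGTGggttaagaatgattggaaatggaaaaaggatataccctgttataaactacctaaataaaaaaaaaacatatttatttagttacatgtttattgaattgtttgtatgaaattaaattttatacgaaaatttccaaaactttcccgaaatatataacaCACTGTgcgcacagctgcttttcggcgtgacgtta
mrt: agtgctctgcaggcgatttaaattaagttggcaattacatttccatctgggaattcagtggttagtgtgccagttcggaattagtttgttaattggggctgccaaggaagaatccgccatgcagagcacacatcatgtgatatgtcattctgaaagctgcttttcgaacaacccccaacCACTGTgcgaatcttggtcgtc

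The DRE is shown as a second kind of element, in 3 of the strongest of these peaks that held it within 100 bp of the summit in sequence outside annotated UTRs. Capitals mark TATCGATA. The stretches lie at chrX:13739407-13739607 (plus strand) for CG11151, chr3R:29220068-29220171 (plus strand) for eEF1gamma and chr2L:18705740-18705940 (minus strand) for Jwa, and the one of eEF1gamma, a gene for a translation elongation factor, ends where an annotated transcript begins and is 104 bases long.
CG11151: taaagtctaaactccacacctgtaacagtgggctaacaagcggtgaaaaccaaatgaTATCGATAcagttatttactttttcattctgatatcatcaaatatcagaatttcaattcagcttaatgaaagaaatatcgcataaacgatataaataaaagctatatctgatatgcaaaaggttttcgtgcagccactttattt
eEF1gamma: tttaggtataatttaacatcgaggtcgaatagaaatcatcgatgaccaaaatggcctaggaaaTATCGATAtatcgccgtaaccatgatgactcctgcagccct
Jwa: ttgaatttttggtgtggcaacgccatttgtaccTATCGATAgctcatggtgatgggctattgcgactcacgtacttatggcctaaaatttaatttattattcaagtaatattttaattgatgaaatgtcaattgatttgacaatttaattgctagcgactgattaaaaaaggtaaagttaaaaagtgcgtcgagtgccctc

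Peaks at single promoters were stronger than peaks away from promoters, and no difference from divergent promoters was detectable. Signal, the authors' value for a peak, is on a scale that the sources used here do not state. Between classes it is therefore used only to order peaks within 1 list. Where values of different lists are set side by side below, they are as deposited, and whether the lists share a scale was not tested. The median signal was 119.9 at single promoters (quartiles 82.5 and 196), 120.9 at divergent promoters and 92.1 outside promoters. Of the single-promoter peaks, 407 of 681 (59.8%, Wilson 95% interval 56.0 to 63.4) lay above the median of all arm peaks, against 332 of 542 (61.3%, 57.1 to 65.3) at divergent promoters. The difference of -1.49 percentage points had an interval of -6.96 to 4.03 (two-sided Fisher's exact test, adjusted p = 0.686). Outside promoters the share was 647 of 1549 (41.8%, 39.3 to 44.2). Single promoters were 18.0 points higher (two-sided Fisher's exact test, adjusted p = 1.31e-14). Adjustment followed Benjamini and Hochberg over 7 comparisons of peak classes. These p-values cover counting over peaks of the same 2 libraries and not variation among embryos.

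In recovery between the replicates, too, no difference between the promoter classes was detectable. The list of replicate 1 held 464 of the 681 peaks, that of replicate 2 held 457, and both held 374 (54.9%, 51.2 to 58.6). A further 173 were in 1 list and 134 in neither. At divergent promoters both lists held 291 of 542 peaks (53.7%), a difference of 1.23 points with an interval of -4.37 to 6.83 (two-sided Fisher's exact test, adjusted p = 0.686). Signal was close to the sum of the values in both replicates, so presence in both lists was bound to go with it. With the peaks ranked by signal and divided into 4 equal groups, both lists held 169 of 171 peaks in the strongest group, 148 of 170 in the next, 51 of 170 in the third and 6 of 170 in the weakest. Over the 374 peaks in both lists, signal was higher in replicate 1 at 313, and replicate 1 over replicate 2 had a median log2 ratio of 0.35 with an SD over these peaks of 0.35. The median signal of these peaks was 106.1 in replicate 1 and 82.9 in replicate 2.

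**Figure D1:**
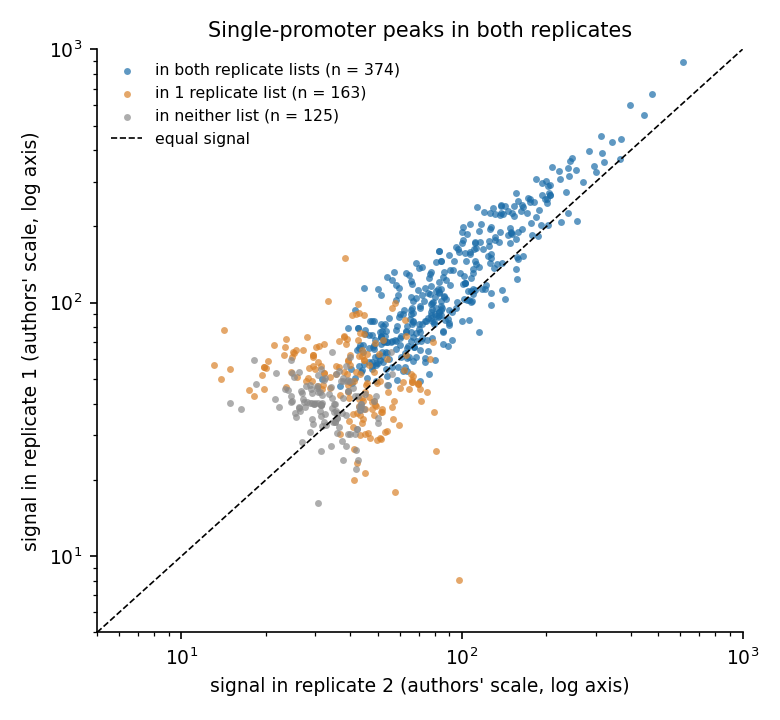
Signal of each single-promoter peak in replicate 1 (vertical, authors' scale, log axis) against replicate 2 (horizontal, log axis), with 1 point for each of the 662 peaks matched in the longer ranked lists of both replicates. Most points in both replicate lists (374 peaks) lie above the line of equal signal, and peaks in 1 list or in neither gather at the low end.

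The deposited signal of a peak was close to the sum of its values in both replicates, with 21 exceptions. Over the 662 peaks with a value in both ranked lists, the median ratio of signal to that sum was 0.998 (quartiles 0.968 and 1.02). In 21 peaks the ratio was below 0.5. All 21 overlapped a stronger peak of the same list, so the replicate values printed for them can be those of the neighbour. The 3 weakest peaks of the class, at Lip4 (signal 2.79), Gmppb (2.75) and CG10353 (2.49), are of this kind, with 48.7, 55.5 and 34.0 in replicate 1 and 40.0, 19.6 and 35.2 in replicate 2.

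Summits lay mostly upstream of the start site. Only 109 of 681 summits (16.0%, 13.4 to 18.9) lay downstream of the nearest start, against 572 (84.0%) upstream (two-sided exact binomial test against an even division, adjusted p = 4.15e-76). The rule excludes opposite starts upstream but not downstream, so it need not give an even division by itself. The test is a reference only. The median summit was 160 bp upstream (quartiles 267 and 75 bp upstream). Between 100 and 200 bp upstream there were 190 summits (27.9%), between 200 and 300 bp upstream 140 (20.6%), and in the last 100 bp before the start 117 (17.2%). Of the 109 downstream summits, 108 lay within the named gene itself, which follows largely from their place just after its start. The median signal of the downstream summits was 99.7, against 126.8 for the upstream ones.

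The upstream position was sharper in the strongest peaks. In the strongest of the 4 groups by signal 156 of 171 summits (91.2%) lay upstream, with quartiles 238.5 and 120.5 bp upstream of the start, and in the weakest group 127 of 170 (74.7%) did, with quartiles 300.5 bp upstream and 1.75 bp downstream. At divergent promoters the median summit was 90 bp upstream, and 102 of 542 (18.8%) lay downstream. The difference, single minus divergent, was -2.81 points (two-sided Fisher's exact test, adjusted p = 0.344). A summit between divergent starts cannot lie far upstream of the nearest one, which bears on this share as on the medians. No conclusion about the classes is therefore drawn from this test.

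**Figure D2:**
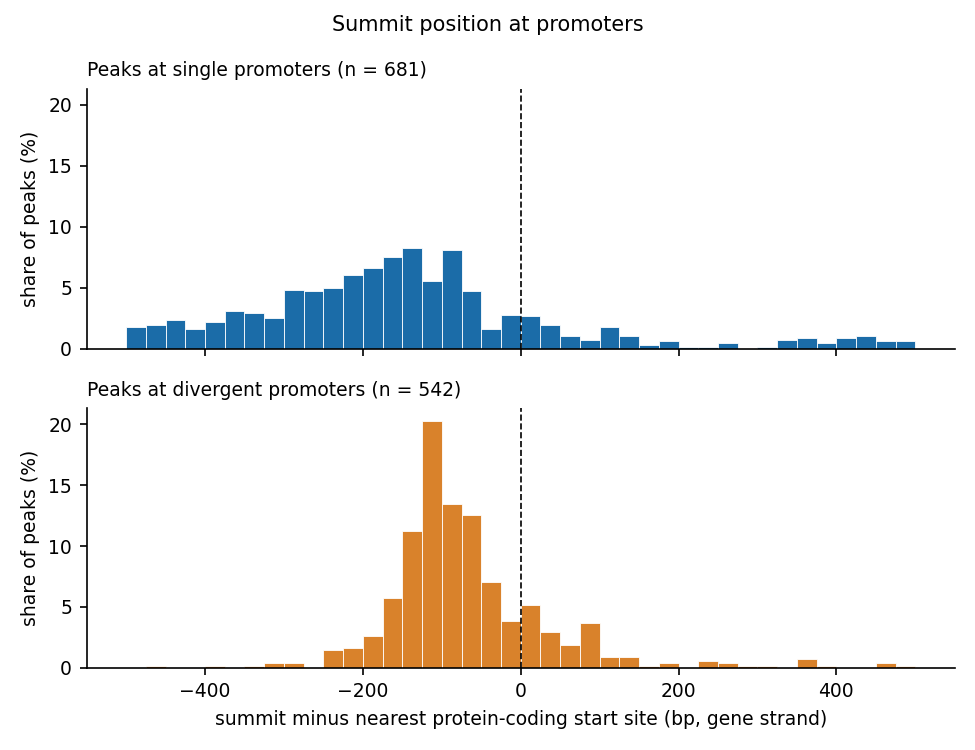
Share of peaks (%) by the distance of the summit from the nearest protein-coding start site, in bins of 25 bp on the gene strand, at single promoters (top, n = 681) and divergent promoters (bottom, n = 542). Single-promoter summits spread widely upstream around a median of -160 bp, and divergent ones gather around a median of -90 bp.

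Single gene starts were bound less often than divergent ones. A summit lay within 500 bp of 457 of 9054 single gene starts (5.05%, 4.62 to 5.52), against 942 of 4914 divergent gene starts (19.2%, 18.1 to 20.3). Here 1 start, the one farthest 5′, was counted for each gene. The difference was -14.1 points (two-sided Fisher's exact test, adjusted p = 1.91e-146). A single summit between divergent genes can lie within 500 bp of both starts and then counts for both.

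The strongest peak of the class lay 94 bp upstream of the start of CG14100 (FBgn0036889), at chr3L:19590471-19590751, between genes. Its signal was 1501, with 892 in replicate 1 and 615 in replicate 2. The 20 strongest peaks that both replicate lists held had signals from 557 to 1501, and their summits ran from 498 bp upstream to 482 bp downstream, with 18 of 20 upstream. Replicate 1 was higher than replicate 2 at all 20, by 1.01 to 1.51 times. ACAGTG lay within 100 bp of 6 of the 20 summits.

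The genes at these 20 peaks had varied roles, as far as they are known. ph-p, which encodes a Polycomb-group protein, named 2 of them, at different starts of the gene. One, at chrX:2137217-2137485, had a signal of 1133 (665 and 476 in replicates 1 and 2), and the other, at chrX:2137757-2138029, had 649.5 (346 and 294). ph-p has a closely similar neighbour, ph-d, and how reads were placed between such copies was not tested. Atf3 (signal 609, 363 and 242 in replicates 1 and 2) encodes a bZIP transcription factor and Sox14 (690, with 359 and 320) an HMG-box transcription factor. Gapdh2 (631, with 327 and 301) encodes a glycolytic enzyme and GstE13 (764, with 455 and 313) a glutathione S-transferase. Fkbp14 (767, with 432 and 344) encodes a prolyl isomerase, TRAM (583, with 341 and 239) a protein of the translocation site for secreted proteins, and Rtnl1 (567, with 331 and 222) a reticulon of the endoplasmic reticulum. eIF6 (997, with 600 and 397) acts in ribosome assembly, and its summit lay 110 bp upstream inside another gene. The others were CG18549 (983), CG1635 (810), Tina-1 (728), CG1888 (701), SLC5A11 (687), CG31145 (622), CG11857 (589), MFS10 (573) and osp (557). SLC5A11 stood closest to the divergent limit of these, with an opposite start 1039 bp upstream. Gene names here say which start is nearest and nothing of what a peak regulates.

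The members nearest to the distance limit were Sqor (500 bp, signal 128), ph-p (498 bp, 1133) and CG10479 (498 bp, 175). Just outside it were by (502 bp, 14.4), CG10543 (504 bp, 146) and dlg1 (505 bp, 129).

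Most genes were named by 1 peak of the class. Of 629 genes, 581 had 1 peak, 44 had 2 and 4 had 3. The genes with 3 were dnc, Moe, Ptpmeg2 and Rtnl1, and each of their peaks lay at a different start. The peaks of Ptpmeg2, a protein tyrosine phosphatase gene, had signals of 425, 334 and 270, with summits 196, 189 and 161 bp upstream. Those of Rtnl1 had 567, 279 and 117, those of dnc, a cyclic AMP phosphodiesterase gene, 332, 234 and 117, and those of Moe, which links actin to the membrane, 177, 76.5 and 72.7. Over all 681 peaks, 424 (62.3%) were nearest to the first start of their gene. Of the 681 summits, 330 lay between genes, 283 within the named gene, 37 within another gene and 31 within both.

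The named genes were long and often had several starts. Their median length was 6284 bp (quartiles 2597 and 16661), against 2430 bp for genes named by divergent-promoter peaks and 1971 bp for single-promoter genes with no summit within 1000 bp. More than 1 start was annotated at 381 of 629 genes (60.6%, 56.7 to 64.3), against 228 of 528 (43.2%) at divergent promoters and 1796 of 8271 (21.7%) without a peak. A gene with several starts has more chances to fall under the rule, so these shares are a description.

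ACAGTG was nearly 3 times as frequent at the summits as in sequence 700 bp upstream. The word was named with earlier results of these data known, so its tests are no independent evidence. The window of 100 bp to either side of the summit held the word on either strand in 148 of 681 peaks (21.7%, 18.8 to 24.98), against 54 of 681 upstream windows (7.93%, 6.13 to 10.2), 2.74-fold. The difference of 13.8 points passed the two-sided exact McNemar test, adjusted over all words of 6 letters (adjusted p = 4.85e-10). With 50 bp to either side in place of 100 bp the difference was 4.85 points (same exact test, adjusted p = 0.0159). At divergent summits the word was in 99 of 542 windows (18.3%, 15.2 to 21.7), a difference of 3.47 points from single promoters with an interval of -1.08 to 7.91 (two-sided Fisher's exact test, adjusted p = 0.722). Among the 170 strongest peaks it was in 41 windows (24.1%) and among the 170 weakest in 35 (20.6%), which did not pass (two-sided Fisher's exact test, adjusted p = 0.686).

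Over all words of 6 letters, 51 were more frequent at the summits than upstream (2.45% of words tested) and 50 less frequent (2.4%). The leading words besides ACAGTG and its neighbour ACTGTG (16.7% of summit windows and 6.31% of flanks) were rich in A and T. TTAAAA was in 52.1% of summit windows and 31.1% of flanks (adjusted p = 1.79e-11 by the exact McNemar test), AAAATA in 58.3% and 39.9%, and AATATA in 41.6% and 25.8%. Among the less frequent words were GGAGGA (2.64% and 10.6%), CTCCTC (2.79% and 9.25%) and ACGGCC (1.03% and 5.87%). The median content of G and C was 35.3% at the summits and 39.8% upstream, and its part in these words was not tested. GCACCC, described as a site of the vertebrate relatives of Oaz, was in 2.94% of summit windows and 5.43% of flanks and did not pass (adjusted p = 0.193 by the exact McNemar test).

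ACAGTG was densest to either side of the summit, and most copies there faced it. From 50 to 125 bp from the summit there were 173 copies in 138 peaks, or 16.9 copies per 100 peaks per 100 bp, against 9.25 within 50 bp and 4.55 from 200 to 400 bp. Of the 173 copies, 135 (78.0%, 71.3 to 83.6) read ACAGTG toward the summit, 53 of them upstream on the gene strand and 82 downstream on the other strand. From 200 to 400 bp the share was 60 of 124 (48.4%, 39.8 to 57.1), close to an even division. The direction was seen in 1 profile and then described, so it has no test. Its intervals count copies and not peaks, and copies in the same peak are not independent, so they can be too narrow.

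The same direction appeared in both replicates' own lists. From 50 to 125 bp, 110 of 140 copies (78.6%) faced the summit in the list of replicate 1 and 112 of 142 (78.9%) in that of replicate 2, lists that share many peaks. At divergent promoters the facing share was 66.3% (56.7 to 74.8), with 67 copies, and outside promoters 316 of 399 (79.2%, 74.9 to 82.9), so the direction was not limited to single promoters. Within single promoters the density in this stretch was 28.1 copies per 100 peaks per 100 bp in the strongest group by signal. In the weaker groups it was 16.9, 13.3 and 9.41. Within 50 bp of the summit it went largely the other way, at 4.68 in the strongest group, then 7.65, 13.5 and 11.2. Peaks had a median width of 204 bp in the strongest group and 330 bp in each other group, and the part of width was not tested. The facing share from 50 to 125 bp was 59 of 72 (81.9%) in the strongest group and 15 of 24 (62.5%) in the weakest. A facing copy from 50 to 125 bp was present in 106 peaks, and 27 of these had one on both sides, as in the sequences of CG1635, Rtnl1, PAN3 and Dpp10.

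**Figure D3:**
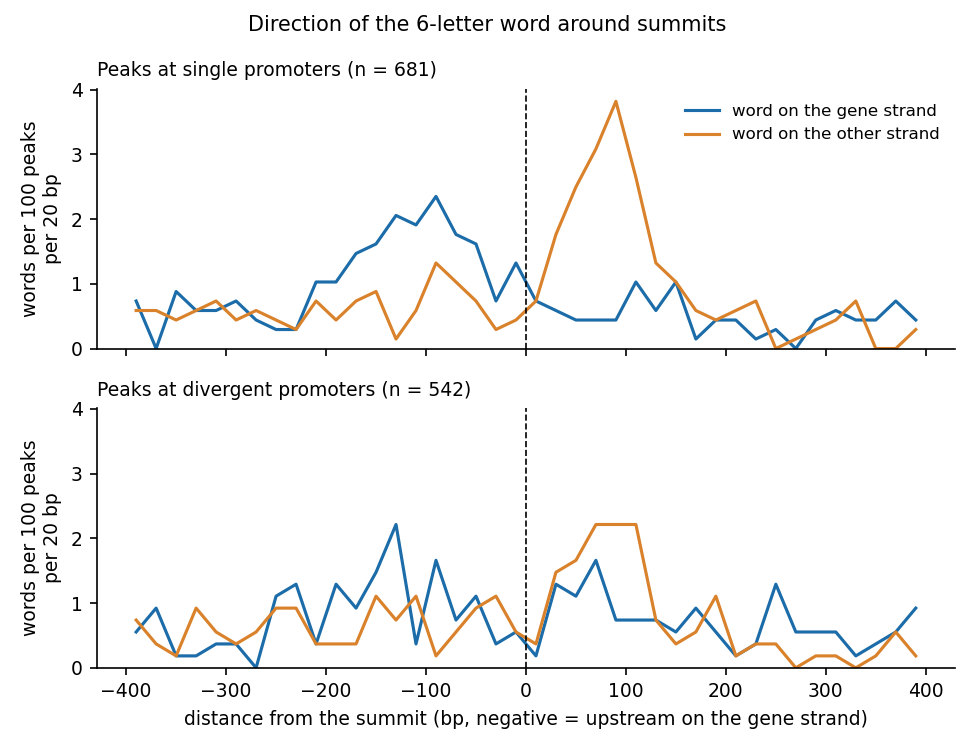
Copies of ACAGTG per 100 peaks in bins of 20 bp around the summit, for the word on the gene strand and on the other strand, at single promoters (top, n = 681) and divergent promoters (bottom, n = 542). At single promoters the word on the gene strand is dense upstream and the word on the other strand downstream, and both are sparser at the summit than in those stretches.

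The bases around the word also differed between near and far copies. Within 125 bp of single-promoter summits, 69 of 236 copies (29.2%) had GC directly before the word, as GCACAGTG, against 17.7% of copies from 200 to 400 bp. A G directly after it, as ACAGTGG, was at 124 of 236 (52.5%), against 37.1% of far copies. At divergent promoters GCACAGTG made up 11.9% of the near copies and outside promoters 26.9%. These forms were chosen after the copies were seen and have no test.

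Single and divergent summits differed in words of promoter elements around them. GAGAGA was in 80 of 681 single-promoter windows (11.7%), against 10 of 542 divergent ones (1.85%), the smallest p of all words (two-sided Fisher's exact test, adjusted p = 5.34e-09). Against the upstream flanks of the same single-promoter peaks (7.64%) it did not pass (adjusted p = 0.130 by the exact McNemar test). The shorter GAGAG stood at 2.94 and 2.50 copies per 100 single-promoter peaks in the 25 bp on either side of the summit. From 75 to 100 bp away it stood at 11.0 and 15.9. AGAGAG (13.1% and 5.17%), GAGTGC (11.0% and 4.24%) and AGTGCG (10.6% and 4.43%) were also more frequent at single promoters. Words of the DRE were less frequent there, with TATCGA in 12.9% of single and 26.4% of divergent windows (adjusted p = 3.17e-06) and ATCGAT in 9.10% and 19.7% (adjusted p = 5.87e-05), both by the two-sided Fisher's exact test. TATAAA, the letters of the TATA box, was in 33.2% and 43.9% (adjusted p = 0.0207, same exact test). It was counted anywhere in the window and not only where TATA boxes act. In all, 13 words (0.625% of words tested) were more and 15 (0.721%) less frequent at single promoters. The median content of G and C was 35.3% at single summits and 33.8% at divergent ones, and its part in these words was not tested. The windows were centred on summits, with a median 160 bp upstream of the start at single and 90 bp at divergent promoters. They therefore cover different parts of the promoter, and the part of this in these words was not tested either.

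These counts depended on the peak list used. The list of replicate 1 alone called 4 words and that of replicate 2 alone 12, against 28 in the list made from both. The lists of 1 replicate also hold fewer peaks. Replicate 1 had 474 at single and 388 at divergent promoters, replicate 2 had 491 and 350, and the list from both had 681 and 542. The part of list size in these counts was not tested. As whole elements, on either strand, the DRE TATCGATA was in 3.67% of single windows (2.50 to 5.36) and 8.67% of divergent ones (6.58 to 11.3), and GAGAGAG in 6.02% (4.47 to 8.07) and 0.738% (0.287 to 1.88). The element GGTCACACT, bound by the factor M1BP, was in 1.76% of single windows (1.01 to 3.05) and 2.77% of divergent ones (1.68 to 4.52). The E-box form CAGCTG was in 8.37% (6.52 to 10.7) and 13.1% (10.5 to 16.2). CGATA, which lies inside the DRE and is the core bound by the insulator protein BEAF-32, was in 29.4% (26.1 to 32.9) and 41.0% (36.9 to 45.1). The site of the early activator Zelda, CAGGTAG, was rare in both, at 0.587% and 0.923%. All these shares come from the same summit windows, so the limit from the place of the windows holds for them too. Over the promoters of all 13968 genes, from 250 bp before to 50 bp after the first start, the shares were 9.36% for the DRE, 5.86% for GAGAGAG, 45.9% for TATAAA and 13.96% for ACAGTG.

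Among single promoters, those with a peak differed in sequence from those without one. The stretch from 250 bp before to 50 bp after the start was compared between 658 starts with a peak and 8271 genes with no summit within 1000 bp. ACAGTG was in 159 of 658 (24.2%, 21.05 to 27.6), against 929 of 8271 (11.2%, 10.6 to 11.9), 2.15-fold (two-sided Fisher's exact test, adjusted p = 3.43e-16). AGAGCG led all words, with 31.8% of promoters with a peak and 14.0% of those without (adjusted p = 4.1e-25, same exact test). GAGAGA (29.6% and 13.7%), AGAGAG (31.9% and 15.4%) and GAGAGC (30.9% and 15.5%) followed. TATAAA was less frequent, in 35.3% of promoters with a peak and 45.2% without (adjusted p = 3.88e-05, same exact test), as were ATCCTG (2.43% and 6.82%) and ATGTCA (8.21% and 13.7%). In all, 203 words (9.76% of words tested) were more and 119 (5.72%) less frequent. The median content of G and C was 41.5% in promoters with a peak and 38.5% in those without, and its part in these words was not tested. Starts with a peak could be any start of a gene, while those without were the first.

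By distance from the start, GAGA repeats were denser along the upstream stretch and the TATA box differed near the start. GAGAG, with overlapping copies counted, stood at 31.8 copies per 100 starts with a peak and 7.82 without, from 75 to 50 bp upstream. From 100 to 75 bp upstream, where promoters without a peak had their highest value, it stood at 29.3 with a peak and 8.86 without. Farther out, from 400 to 375 bp upstream, the values were 8.81 with a peak and 3.11 without. The longer repeat GAGAGAG was in 127 of 658 promoters with a peak (19.3%, 16.5 to 22.5) and 529 of 8271 without (6.40%, 5.89 to 6.94). From 50 to 25 bp upstream, where TATA boxes act, TATAAA stood at 3.50 copies per 100 starts with a peak and 11.5 without. The whole DRE was in 5.47% of promoters with a peak (3.98 to 7.48) and 5.61% of those without (5.13 to 6.13), and these intervals overlapped. TATCGA, the shorter word of the DRE, was less frequent, in 16.1% of promoters with a peak and 20.6% without (adjusted p = 0.0404, two-sided Fisher's exact test over all words). The initiator TCAGT, counted anywhere in the stretch, was in 54.6% of promoters with a peak and 54.4% of those without. By distance it differed. In the 25 bp from the start onward it stood at 27.1 copies per 100 starts with a peak and 19.0 without. In the 25 bp before the start it stood at 7.45 with a peak and 11.4 without. ACAGTG was densest from 75 to 50 bp upstream, at 4.41 copies per 100 starts with a peak.

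**Figure D4:**
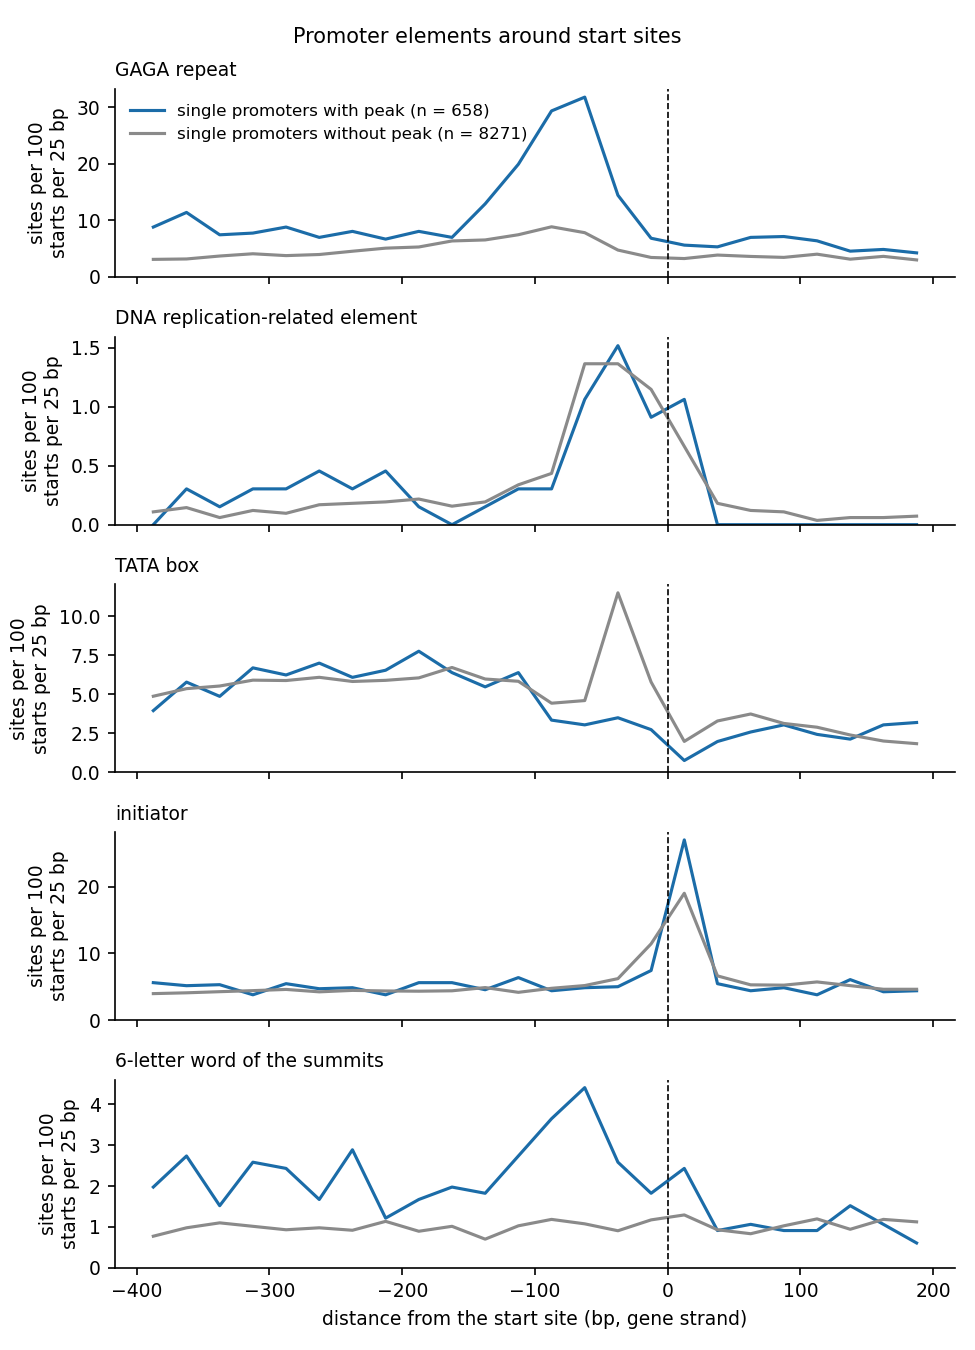
Copies per 100 starts in bins of 25 bp around the start site for the GAGA repeat, the DRE, the TATA box, the initiator and ACAGTG, from top to bottom, in single promoters with a peak (n = 658) and without one (n = 8271). The GAGA repeat is denser upstream of starts with a peak, at 31.8 copies per 100 starts with a peak and 7.82 without from 75 to 50 bp upstream, and from 50 to 25 bp upstream the TATA box is at 3.50 with a peak and 11.5 without.

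Summits lay farther upstream at promoters with GAGA repeats than at those with a DRE. Promoters with GAGAGAG and no DRE named 129 peaks with a median summit 232 bp upstream and a median signal of 151, and 80 of the 129 were in both replicate lists. Promoters with a DRE and no GAGAGAG named 35 peaks with a median summit 76 bp upstream and a median signal of 97.5, and 18 of the 35 were in both lists. A single peak was at a promoter with both elements. The 516 peaks of promoters with neither had a median summit 151.5 bp upstream and a median signal of 117. ACAGTG was in the summit window of 25 of the 129 peaks, 6 of the 35 and 117 of the 516.

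Genes for cytoplasmic ribosomal proteins had single-promoter peaks more often than any of the other 29 gene lists described. Of all 9677 genes with at least 1 single start, 629 (6.5%) were named by such a peak. Of 41 ribosomal protein genes with a single start, 18 were (43.9%, 29.9 to 59.0). The list was taken up with its excess in these data already known, so the count is no independent evidence. Their 19 peaks had signals from 28.8 to 235, with a median of 106.6, which is below the median of the class. RpL23A led with 235 (160 and 83.0 in replicates 1 and 2), followed by RpL30 with 156 (84.9 and 66.7) and RpL11 with 137 (70.6 and 71.3). Both replicate lists held 12 of the 19. RpS23 named 2 peaks that overlap, so the replicate values of the weaker, with the signal of 28.8, are those of the stronger. Without it the lowest signal was 74.4, and both lists held 11 of 18.

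The ribosomal protein peaks lay close to the start. Their summits ran from 216 bp upstream to 18 bp downstream with a median 34 bp upstream, and 16 of 19 lay within 100 bp. The farthest was the weaker peak of RpS23, and without it the farthest lay 118 bp upstream. ACAGTG was in 2 of the 19 windows, those of RpL23A and RpS29, the DRE in 4 (RpS10b, RpL37-1, RpL27 and RpS29) and GAGAGAG in 0. Over all single-promoter windows the shares were 21.7% for ACAGTG, 3.67% for the DRE and 6.02% for GAGAGAG. With only 19 windows, these counts were not tested. Genes for mitochondrial ribosomal proteins had 0 of 15, which allows a share of up to 20% (3 counts of the 15; the Wilson interval reaches 20.4%).

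Signalling and chromatin lists held few members each. The Wingless pathway had 4 of 20 (20%, 8.07 to 41.6), led by sgg, the kinase that marks Armadillo for breakdown, with a signal of 377 (184 and 186 in replicates 1 and 2). The Notch pathway had 3 of 17 (17.6%), with gro, a co-repressor, at 316 (182 and 131), numb, a Notch inhibitor, at 278 (162 and 119) and E(spl)m3-HLH, a Notch target, at 118 (59.8 and 54.0). Polycomb and Trithorax genes had 3 of 17, with Trl, which encodes the GAGA factor, at 213 (101.2 and 108.6), besides ph-p and lolal. The EGFR pathway had 2 of 15, the ligand spi at 224 (120 and 103) and its antagonist aos at 93.5 (41.8 and 43.0). In the cell-cycle list Dp, a partner of E2F, had 245 (131 and 110), CycE 95.8 and CycD 78.6, so 3 of 19. The intervals of all these lists are wide, and those of the Notch, Polycomb and Trithorax, EGFR and cell-cycle lists reach below 6.5%.

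The posterior spiracle and tracheal list had 2 of 20 (10%, 2.79 to 30.1). One was L, the symbol under which the annotation lists Oaz itself, with a signal of 298 (151 and 157 in replicates 1 and 2) and a summit 237 bp upstream. The flies carry an Oaz transgene, and whether it adds to this signal was not tested. The other was bnl, the FGF ligand of tracheal branching, at 78.5 (40.3 and 29.2). The Dpp pathway had 1 of 23, ush, at 68.4 (40.2 and 28.8).

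Chemosensory receptors had 0 of 154 genes, which allows a share of up to 1.95% (3 counts of the 154; the Wilson interval reaches 2.43%), and cuticle proteins had 1 of 108 (0.926%, 0.164 to 5.06), Cpr65Eb, at 65.4. The proteasome list had 0 of 26 (up to 11.5%, Wilson 12.9%) and oxidative phosphorylation 1 of 47 (2.13%, 0.377 to 11.1), ND-B17. Heat shock proteins had 2 of 20, Hsp27 at 259 (165 and 95.4) and Hsp26 at 107 (68.9 and 32.1). Of the 30 lists, 13 lay above 6.5% and 17 below, 10 of them with 0 genes.

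**Figure D5:**
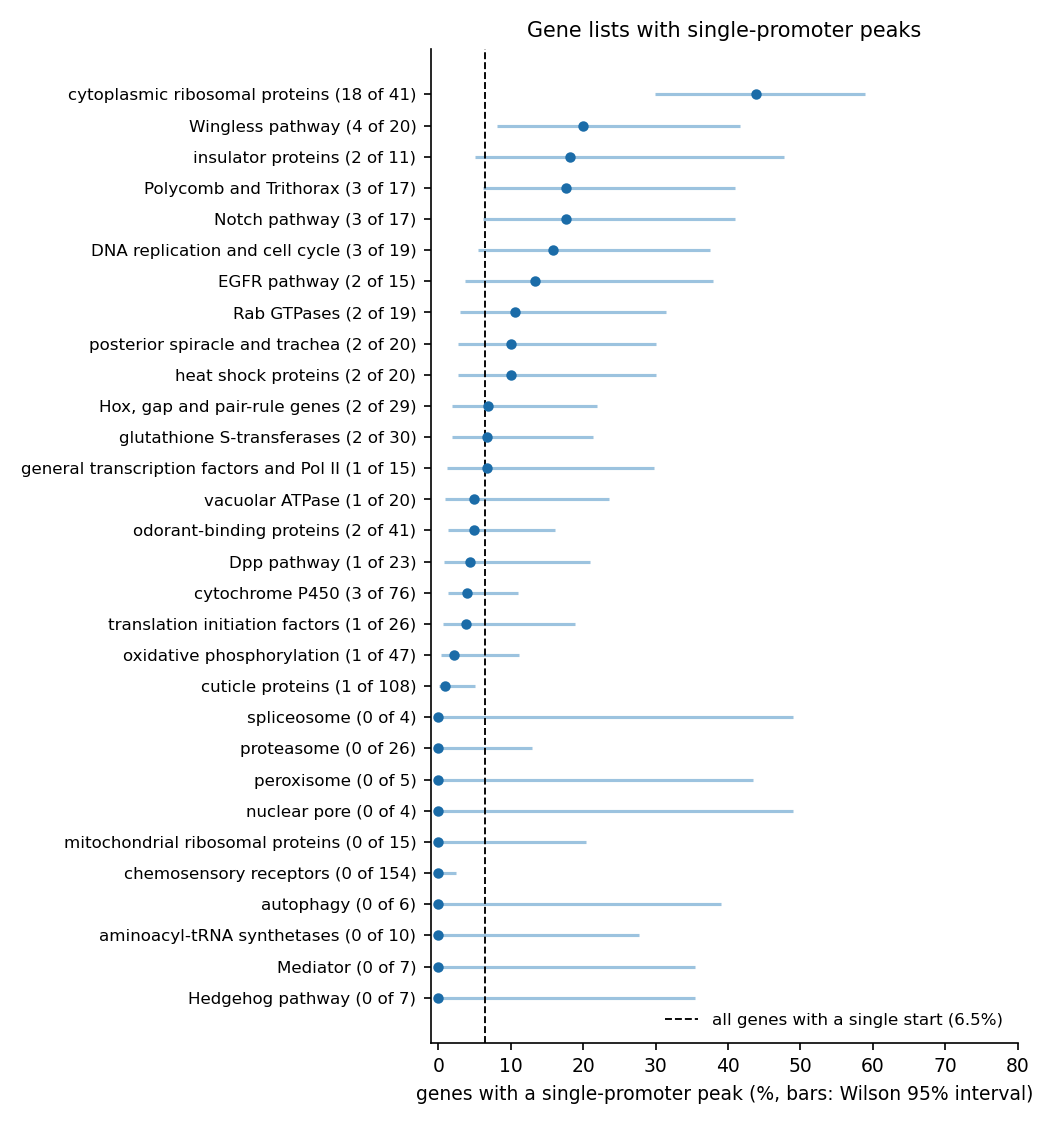
Share of genes with a single-promoter peak (%) in each of 30 gene lists, with Wilson 95% intervals and the counts beside each name. The dashed line is the share over all genes with a single start (6.5%), and the cytoplasmic ribosomal proteins (43.9%) lie farthest to the right.

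Chromosome X held 144 of the 681 peaks (21.1%) and 16.2% of eligible genes, and 7.97% of eligible X genes were named. Its share was 11.4% of peaks at divergent promoters and 21.2% of those outside promoters. Arm 3R held 21.0% of the peaks and 24.0% of eligible genes, and 3L held 17.3% of the peaks and 19.7% of eligible genes. None of these shares was tested. On the other large arms the named share ran from 5.91% on 3R to 6.66% on 2L, and on chromosome 4 it was 3.03%, with 2 genes.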

How the data were processed

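ChIP-seq was done by the authors on 2 biological replicates of whole embryos of the strain Oaz-GFP, which expresses an Oaz-eGFP fusion, with anti-GFP. Per the labels, chromatin was sonicated to between 200 and 800 bp. The labels give Oaz as the antibody in another field. Per the notes deposited with the samples, the lists came from alignments of both replicates, or of 1 replicate, and a control, on dm6. No aligner is named there, and the program that called the peaks is likewise not given in these sources. The deposited signal of a peak is the authors' value on an unstated scale, and the deposited −log10 of the global IDR (irreproducible discovery rate) was used only for a stricter list at 0.001. Depth is unknown, since reads and coverage were not analysed here. Wilson 95% intervals cover counting over peaks, promoters or genes only, and those of the facing shares cover counting over copies of the word. A peak can hold several copies, so the intervals of the facing shares can be too narrow.

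Peaks of the optimal list were assigned to the nearest of 19630 protein-coding starts of 13968 genes (Ensembl release 115), with ties to the lower gene identifier. All 3 kinds of peak come from this list. Words were counted once per window on either strand. Elements were searched by the letters given with the results, on both strands. The shorter GAGA words lie inside GAGAGAG, and TATCGA inside the DRE. Tests were two-sided exact tests with Benjamini and Hochberg adjustment over 7 class comparisons or all words of 6 letters (a word and its reverse complement as 1), with a threshold of 0.05, and were tested on simulated data. Named were the 20 strongest peaks in both replicate lists, the 3 weakest, the 3 nearest to the limit on each side, up to 3 members of each gene list and 5 words per table and direction. The genes with 3 peaks and the remaining ribosomal protein genes were named after their values were seen. Members, lists and the word ACAGTG were chosen with earlier results of these data known. Of the symbols in the gene lists, 5 had no match. Alternatives changed the peak list, overlaps, distances, windows and flank. Scripts ran under Python 3.11.15 with pandas 2.3.3, scipy 1.17.1 and numpy 2.4.6, and figures were drawn with matplotlib 3.10.9.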

Additional observations from a re-analysis of the deposited data

How the results depend on the processing

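Over 13 results, 17 alternatives gave 113 values, of which 87 kept their direction and side of the threshold (or, for counts of words, lay within 1.5 times). The upstream position, the comparison with peaks outside promoters, the occupancy of starts and the excess of ACAGTG over upstream flanks and over promoters without a peak were among these under every alternative run for them. The share above the median, single minus divergent, turned to 0.244 points in the conservative list, 3.68 at an IDR of 0.001, 0.587 with a divergent distance of 2000 bp and 2.37 with the upper quartile of signal as limit, and was -1.21 to 0.984 with 1 replicate left out. Recovery turned to -3.27 points when only replicate 1 was asked for and to -0.590 with a distance of 500 bp. ACAGTG in the strongest minus the weakest of 4 groups turned to -6.47 points in windows of 50 bp to either side, and was -0.847 to 1.64 with 1 replicate left out. None of these turned values passed the threshold. The downstream share, single minus divergent, was -5.63 points with a distance of 500 bp, -5.92 with 2000 bp and -6.50 with first starts only, in place of -2.81. Unlike the main value, each of these passed the threshold (two-sided Fisher's exact test, adjusted p = 0.0291, 0.0111 and 0.0292). The rule for divergent promoters itself bears on this share, so no conclusion is drawn from it. Words called at summits against upstream flanks numbered 61 at an IDR of 0.001, 57 with a promoter window of 250 bp, 59 in windows of 50 bp to either side and 603 against the downstream flank, where the median content of G and C was 44.8%, in place of 51 more and 50 less frequent. Between single and divergent summits they numbered 16 in the conservative list, 4 at an IDR of 0.001, 9 with a distance of 2000 bp, 6 in windows of 50 bp to either side and 156 in windows of 200 bp to either side, and 4 to 12 with 1 replicate left out, in place of 28. Between promoters with and without a peak they numbered 156 at an IDR of 0.001 and 81 with a promoter window of 250 bp, and 170 to 218 with 1 replicate left out, in place of 322. Stricter lists and windows also hold fewer peaks; beyond that the cause was not tested. Only 2 replicates, an unknown depth and an unstated signal scale limit all values.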
